A study of Mus musculus with 34 samples.

Results

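The genes described here are those whose symbol in the deposited count tables is Gpr followed by a number, with a count above 0 in at least 1 library. They number 89 of 24485 symbols, and all 89 had such a count. The label orphan G protein-coupled receptor holds for only part of them. The symbols also cover adhesion receptors that carry newer names (Gpr56 is Adgrg1, Gpr123 is Adgra1 and Gpr115 is Adgrf4), receptors with an accepted ligand (Gpr30, Gpr44, Gpr81, Gpr34, Gpr183), and membrane proteins that do not signal as classical receptors (Gpr89, Gpr107, Gpr108, Gpr137, Gpr155 and Gpr180). They are therefore called the Gpr genes below.

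The study sequenced RNA from the hippocampus of wild-type (WT) mice given fluoxetine, a selective serotonin reuptake inhibitor, or vehicle. The labels name 3 sources: granule cells (4 vehicle and 4 fluoxetine libraries), mossy cells, spelled "Moosy cells" (6 and 7), and hippocampus (6 and 7). Granule cells are the principal neurons of the dentate gyrus and mossy cells are glutamatergic neurons of its hilus. Libraries were made by TRAP (translating ribosome affinity purification), in which tagged ribosomes are captured and the mRNA they carry is read. The labels used here give no dose, duration, age, sex, tag, driver line or number of animals per library, and do not say whether the hippocampus libraries hold bound or input RNA. Nothing says that replicates came from different animals, and p-values thus measure only the spread between these libraries.

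G protein-coupled receptors are membrane proteins that pass a signal from outside the cell to G proteins within it, which raise or lower second messengers such as cyclic AMP and calcium. An orphan receptor is one with no accepted natural ligand. Some orphans, such as Gpr3, Gpr6 and Gpr12, raise cyclic AMP without any ligand, so their level sets their output. Adhesion receptors join a long outer part, which binds matrix or other cells, to a receptor core. In the brain such receptors mark cell types sharply: Gpr34 is a receptor for lysophosphatidylserine on microglia, Gpr17 marks committed oligodendrocyte precursors, and Gpr37 is abundant in oligodendrocytes.

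Total counts ranged from 14.1 to 45 M per library. Levels are given as CPM, with one TMM scaling over all 34 libraries, and per length they are CPM per kb of exon. Granule cell markers (6 genes) summed to 853 to 1002 CPM in granule cell vehicle libraries, 221 to 250 in mossy cell and 406 to 442 in hippocampus vehicle libraries. Mossy cell markers (6 genes) summed to 397 to 541 CPM in the mossy cell vehicle libraries and 212 to 236 in hippocampus, but interneuron markers (7 genes) were also high there, at 2810 to 3949 against 475 to 536. In the tests between sources below, the 6 mossy cell markers did not move together. In the mossy cell libraries 4 were higher and 2 lower than in hippocampus, and 3 were higher and 2 lower than in granule cells. A Gpr gene high in the mossy cell libraries can thus not be assigned to mossy cells alone. Fluoxetine library 4 of hippocampus stood apart, with 5706 CPM of 8 astrocyte markers against 1835 to 2441 in the 6 others, and 241 CPM of 8 microglial markers against 49.5 to 100. Fluoxetine library 4 of mossy cells stood apart likewise, with 1386 and 108 CPM. Called fluoxetine changes of Gpr genes that moved by more than 1.5 times or were lost without them are given without them too. In such bulk RNA, fewer cells of a type and less RNA per cell cannot be told apart.

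Before the values, the promoters of the genes that rose with fluoxetine in both mossy cells and hippocampus are shown, since they are the set on which the comparison turns. Correcting for GC content and transcript length ended the shared calls of Gpr123 and Gpr158 and added that of Gpr155, whose promoter is not shown. Of the 5 genes shared without this correction (Gpr56, Gpr115, Gpr123, Gpr158 and Gpr162), 4 had a promoter in the RefSeq table of build GRCm38.p6, which runs from 250 bases before to 50 bases after each start. Gpr162 had none and is named only. Capitals mark the core TGACG of the cyclic AMP response element, searched on both strands (CGTCA on the other), and Gpr56 is shown with both of its RefSeq starts. The windows lie at chr8:94976859-94977158 and chr8:94984149-94984448 (Gpr56, plus strand), chr17:42692235-42692534 (Gpr115, minus), chr7:139833924-139834223 (Gpr123, plus) and chr2:21367317-21367616 (Gpr158, plus).
Gpr56 promoter 1: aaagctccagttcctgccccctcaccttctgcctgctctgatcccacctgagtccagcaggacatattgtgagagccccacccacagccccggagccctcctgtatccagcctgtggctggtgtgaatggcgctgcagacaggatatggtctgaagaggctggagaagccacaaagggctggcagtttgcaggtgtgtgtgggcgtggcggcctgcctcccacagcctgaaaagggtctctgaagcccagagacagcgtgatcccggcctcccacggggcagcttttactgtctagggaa
Gpr56 promoter 2: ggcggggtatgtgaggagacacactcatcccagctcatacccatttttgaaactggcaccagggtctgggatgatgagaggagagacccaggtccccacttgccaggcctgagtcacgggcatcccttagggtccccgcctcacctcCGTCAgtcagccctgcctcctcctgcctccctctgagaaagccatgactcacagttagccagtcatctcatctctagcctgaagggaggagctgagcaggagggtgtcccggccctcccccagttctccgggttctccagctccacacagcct
Gpr115 promoter: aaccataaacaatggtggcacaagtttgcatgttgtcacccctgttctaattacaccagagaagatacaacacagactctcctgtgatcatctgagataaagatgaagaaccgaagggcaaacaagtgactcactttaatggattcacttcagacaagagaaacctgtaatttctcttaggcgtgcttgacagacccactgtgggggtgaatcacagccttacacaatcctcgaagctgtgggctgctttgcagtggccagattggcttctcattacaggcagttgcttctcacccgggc
Gpr123 promoter: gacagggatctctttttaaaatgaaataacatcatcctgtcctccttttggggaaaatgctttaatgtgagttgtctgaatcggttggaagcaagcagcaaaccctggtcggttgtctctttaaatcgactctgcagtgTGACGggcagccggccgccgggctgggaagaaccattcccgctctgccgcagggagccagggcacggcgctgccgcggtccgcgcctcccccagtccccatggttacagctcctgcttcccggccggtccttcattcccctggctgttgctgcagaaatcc
Gpr158 promoter: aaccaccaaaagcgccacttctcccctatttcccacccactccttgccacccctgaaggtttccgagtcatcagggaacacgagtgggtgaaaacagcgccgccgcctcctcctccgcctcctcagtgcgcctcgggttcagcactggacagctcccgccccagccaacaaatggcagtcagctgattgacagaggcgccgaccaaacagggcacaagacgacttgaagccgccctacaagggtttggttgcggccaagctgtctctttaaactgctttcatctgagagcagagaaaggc
This core occurs in promoter 2 of Gpr56 and in that of Gpr123 (1 match each), and in 20.8% of all 32851 promoters of this length. The windows of Gpr158 and Gpr123 hold 15 and 17 CpG dinucleotides, those of Gpr56 hold 7 and 6, and that of Gpr115 holds 4, beside a median of 7 over all promoters. Only the Gpr158 window has the GC box GGGCGG (2 matches, both strands searched, found in 35.7% of all promoters), only the Gpr115 window has the CCAAT box (37.4%), and none of the 5 windows has the TATA box TATAAA (13.6%). No motif searched here was common to the 5 windows: the E-box CANNTG, present in 72.3% of all promoters, is missing from the Gpr123 window. These are matches of letters and say nothing of binding.

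Under vehicle, a few Gpr genes made up most of the signal. Of 89 genes, 48 (granule cells), 49 (mossy cells) and 49 (hippocampus) reached a mean of 1 CPM, and 17, 19 and 18 reached 10 CPM. The summed level was 835, 686 and 709 CPM. Gpr22, Gpr158 and Gpr123 together held 45.8%, 42.8% and 41.4% of these sums.

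Per length, Gpr22, an orphan of brain and heart, led in granule cells at 37.3 CPM per kb and in hippocampus at 25.6 CPM per kb, while in mossy cells Gpr123 led at 18.4 CPM per kb. Gpr158, a class C receptor that recruits the Rgs7 and Gnb5 complex to the membrane and responds to glycine, came next in each of the 3 sources, at 16.3, 15.8 and 14.2 CPM per kb. Gpr12, which raises cyclic AMP without ligand, stood at 14.5, 6.64 and 12.1 CPM per kb. The CPM of Gpr158 was 133 ± 15.0 (SD, n = 4) for granule cells, 129 ± 6.13 (n = 6) for mossy cells and 116 ± 9.30 (n = 6) for hippocampus, and no contrast between sources called it. Gpr25 ranked 3 to 5 per length, but 41.6% of its exon bases overlap an antisense gene and neither library kit is stated to keep strand, so its reads may belong to either.

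**Figure D1:**
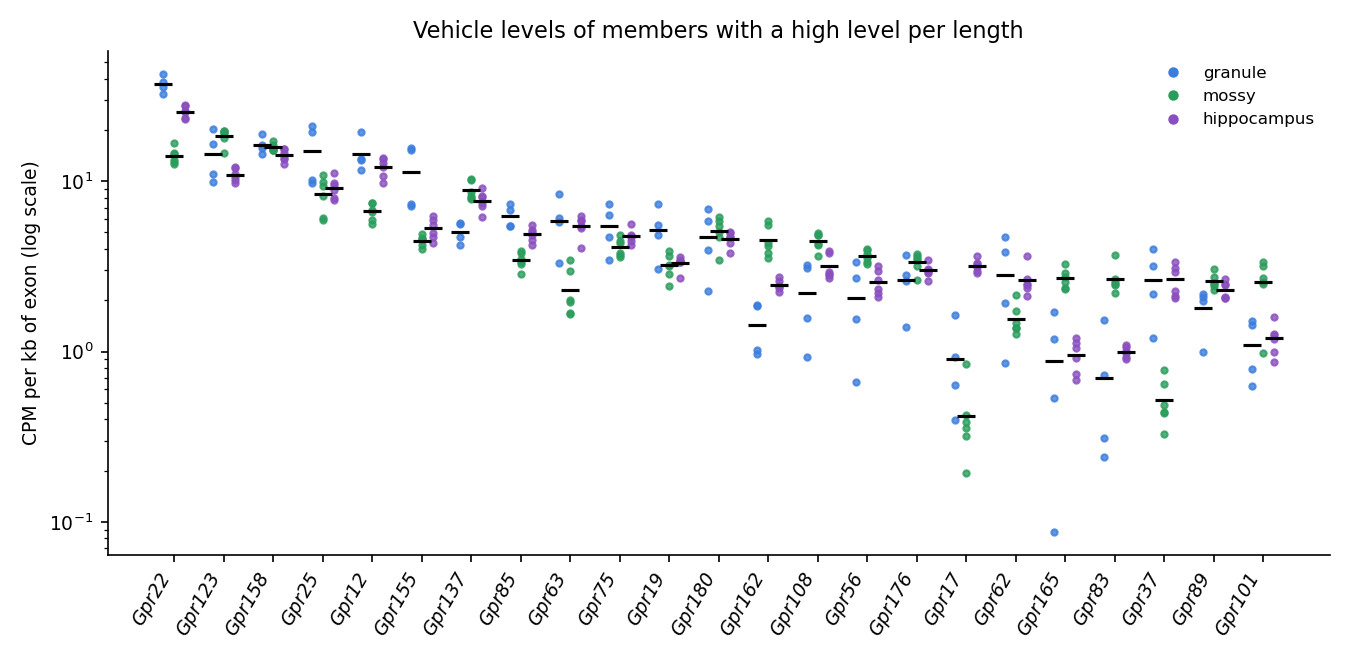
Vehicle levels of Gpr genes with a high mean level per length in at least 1 source, as CPM per kb of exon on a log axis. Points are libraries (4 granule cell, 6 mossy cell, 6 hippocampus) and black marks are means. Gpr22 is above the other genes in granule cells and hippocampus but not in mossy cells.

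At the other end lay several receptors known from other brain regions. Gpr6, the relative of Gpr12 known from the striatum, had mean levels of 0.0140 CPM (granule cells), 0.361 CPM (mossy cells) and 0.234 CPM (hippocampus). Gpr139, a receptor for aromatic amino acids known from the habenula, had 0.212, 0.529 and 0.231 CPM. Gpr151, a habenula receptor, had 0.173, 0.662 and 0.377 CPM. Gpr52, a striatal receptor coupled to Gs, had 1.61 ± 0.988, 1.08 ± 0.375 and 0.959 ± 0.261 CPM (SD, n = 4, 6 and 6). Gpr176, a receptor of the circadian clock in the suprachiasmatic nucleus, was not low, at 10.2 ± 3.71, 13.1 ± 1.59 and 11.7 ± 1.07 CPM. None of these 5 genes passed the test in a fluoxetine comparison where it was tested. Gpr6 was tested in mossy cells only, and Gpr139 and Gpr151 in mossy cells and hippocampus.

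The contrast of mossy cells with hippocampus under vehicle asks which Gpr genes are higher or lower on ribosomes of the mossy cell libraries. With edgeR's quasi-likelihood test and Benjamini-Hochberg adjustment, 67 of the 89 genes were tested, 13 were higher and 24 lower, or 55.2% called against 64.0% of all genes tested (31.3% higher and 32.8% lower). The members' median log2 change was -0.21, against -0.04 over all genes. The fit took the libraries as independent, though 12 of 13 correlated best with the same-numbered library of the other source. With the replicate number as a block 39 genes were called, 15 higher and 24 lower. Since 64.0% of genes differed, the number called says little about the Gpr genes, and the source of the RNA cannot be told apart from the table it was deposited in.

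Of the 13 genes higher in mossy cells, several were neuronal receptors. Gpr165, an orphan with no agreed role, was at 10.6 to 14.9 CPM against 3.10 to 5.49, without overlap (1.51 ± 0.15). Gpr83, reported to bind the proSAAS peptide PEN, was at 11.3 to 18.7 CPM against 4.61 to 5.60, also without overlap (1.42 ± 0.20). Gpr149 (2.33 ± 0.36), the adhesion receptor Gpr126 (Adgrg6, needed for myelination by Schwann cells; 2.11 ± 0.34), Gpr3 (1.10 ± 0.27), Gpr101 (a Gs-coupled receptor linked to growth hormone excess; 1.09 ± 0.32), Gpr153 (1.08 ± 0.29), Gpr162 (0.88 ± 0.13) and Gpr123 (0.75 ± 0.10) were also higher. Also higher were Gpr1 (1.36 ± 0.52), Gpr108 (0.49 ± 0.15) and Gpr107 (0.44 ± 0.17). Gpr1 was low and overlapped between groups, at 0.245 to 1.99 CPM in mossy cells against 0.126 to 0.909 in hippocampus. Only mossy cell vehicle libraries 1, 2 and 3 were above the hippocampus range.

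The genes lower in mossy cells included those of glia. Gpr37 stood at 1.99 to 4.72 CPM in mossy cells and 12.6 to 20.3 CPM in hippocampus, a log2 change of -2.36 ± 0.22 (SE). Gpr17 stood at 1.001 to 4.38 against 15.0 to 18.9 CPM, a change of -2.94 ± 0.36. Gpr34 stood at 0 to 0.201 against 0.428 to 1.71 CPM, a change of -3.44 ± 0.87. None of these 3 genes overlapped between the groups. Beside them, 8 of 8 oligodendrocyte, 8 of 8 astrocyte and 7 of 8 microglial markers were lower in the mossy cell libraries, and the part of these cells in the result was not tested. Neuronal members were lower too, namely Gpr22 (58.2 to 77.2 CPM against 107 to 130, log2 change -0.86 ± 0.09), Gpr12 (-0.87 ± 0.16) and Gpr85 (-0.50 ± 0.10), none with overlap, and so was the cilium receptor Gpr161, which restrains hedgehog signalling (-1.02 ± 0.19).

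In granule cells against mossy cells, 59 Gpr genes were tested, 13 were higher and 11 lower, 40.7% called beside 46.1% of all genes, 23.8% higher and 22.4% lower (median log2 change -0.04, all genes 0.03). Gpr22 was at 150, 165, 176 and 197 CPM in the 4 granule cell libraries, each above every mossy cell library, and its change was 1.36 ± 0.14 (SE). Gpr155, a lysosomal cholesterol sensor, was at 47.7, 48.9, 102 and 104 CPM, above the 26.9 to 32.6 CPM of mossy cells (1.30 ± 0.21). Gpr12 (1.08 ± 0.19), Gpr37 (2.30 ± 0.33) and Gpr85 (0.82 ± 0.19) were higher as well. Gpr149 (-3.34 ± 0.92), Gpr83 (-1.94 ± 0.44), Gpr162 (-1.69 ± 0.25) and Gpr165 (-1.64 ± 0.38) were lower in granule cells. This contrast shares its mossy cell libraries with the one above, so the 2 are not independent.

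Gpr116 (Adgrf5), an adhesion receptor of endothelium and lung, was higher by 2.95 ± 0.38, and by 2.13 ± 0.33 (adjusted p = 1.1e-05) without vehicle library 3 of granule cells. Only Gpr34 was higher by more, 3.95 ± 1.24, at 0.596 to 2.61 CPM against 0 to 0.201. The values of Gpr116 were 9.31, 10.8, 16.0 and 47.8 CPM against 1.64 to 3.76 in mossy cells, and the highest was vehicle library 3. That library also held 132 CPM of 6 endothelial markers, against 5.26 to 18.6 in the 3 others, whose Gpr116 was nonetheless above every mossy cell library. In all, 5 of 6 endothelial markers were higher in granule than in mossy cells. So were 7 of 8 oligodendrocyte, 6 of 8 microglial and 5 of 8 astrocyte markers, and 0 of these markers were lower. The part of these cells in the results for Gpr116, Gpr34, Gpr37 and the other members was not tested.

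Against hippocampus, granule cells had 5 Gpr genes higher and 7 lower of 67 tested, 17.9% called beside 29.7% of all genes, 16.5% higher and 13.2% lower (median log2 change -0.05, all genes -0.00481). Gpr116 (2.14 ± 0.36, and 1.34 ± 0.30 without vehicle library 3 of granule cells), Gpr155 (1.11 ± 0.20), Gpr19 (0.65 ± 0.24) and Gpr22 (0.55 ± 0.12) were higher. Gpr17 (-1.81 ± 0.27), Gpr161 (-1.47 ± 0.52), Gpr173 (-0.96 ± 0.36), Gpr162 (-0.78 ± 0.21) and Gpr137 (-0.61 ± 0.18) were lower. The other 2 called, Gpr171 and Gpr84, had means of 0.280 and 0.144 CPM in hippocampus and 0.00817 CPM each in granule cells. Of the 12 calls, 7 held in each of the fits that left out 1 library, and those of Gpr19, Gpr84, Gpr161 and Gpr173 did not. The call of Gpr161 ended without vehicle library 3 or 4 of granule cells or 5 or 6 of hippocampus. That of Gpr19 ended without vehicle library 1, 3 or 4 of granule cells, vehicle library 1 to 5 or fluoxetine library 1, 2 or 5 of hippocampus, since the fluoxetine libraries share in the estimate of the spread. That of Gpr84 ended without vehicle library 1, 3 or 4 of granule cells, vehicle library 1, 2 or 3 or fluoxetine library 3 of hippocampus, and that of Gpr173 without vehicle library 1, 2 or 3 of granule cells or any hippocampus library. With the replicate number as a block, 3 were called, Gpr155 (1.10, adjusted p = 0.00818), Gpr22 (0.60, adjusted p = 0.0220) and Gpr17 (-1.99, adjusted p = 0.0019). Deviations of same-numbered libraries of these sources correlated by -0.0897 to 0.099, and 1 of 8 matched its own number best. This block need thus not join libraries that belong together.

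**Figure D2:**
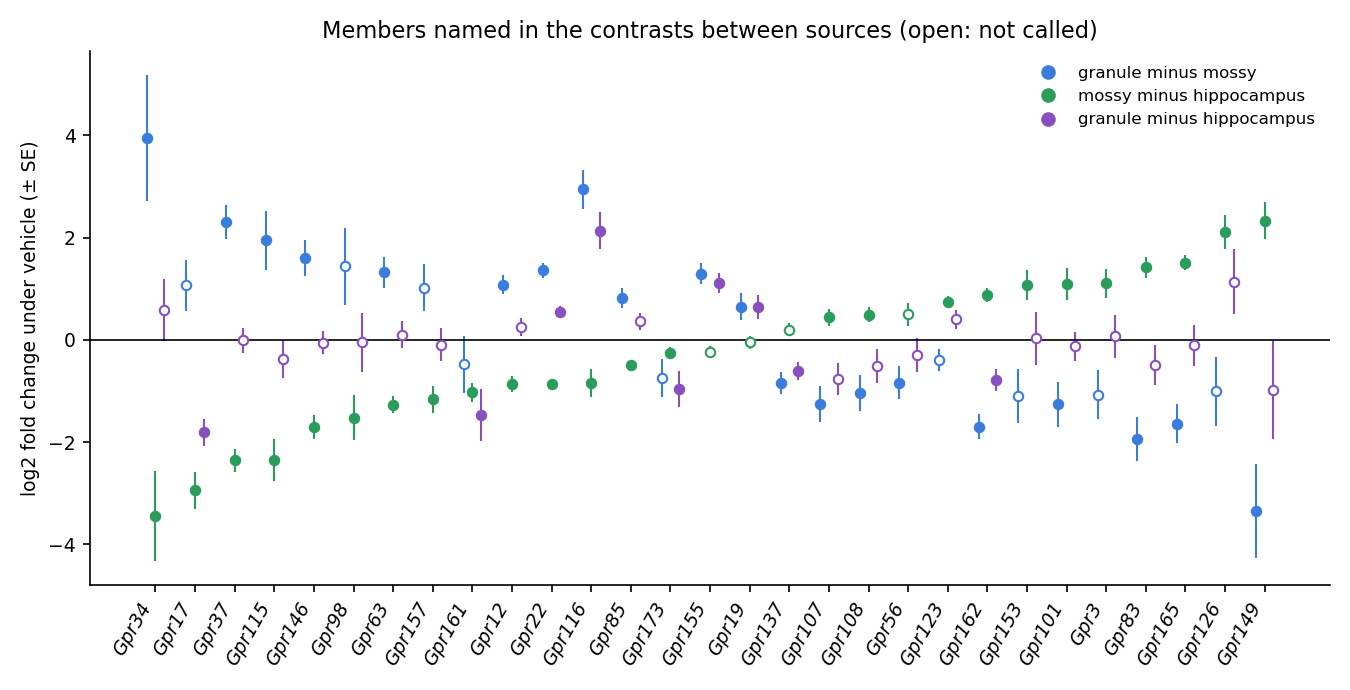
Log2 fold changes between sources under vehicle (± SE) for Gpr genes named in the 3 contrasts, ordered by the mossy cell against hippocampus change. Filled points passed an adjusted p of 0.05, open points did not. Gpr34, Gpr17 and Gpr37 are at the left, lower in mossy cells, and Gpr149 and Gpr126 at the right, higher in mossy cells.

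The fluoxetine comparison in mossy cells asks which ribosome-bound Gpr mRNAs of those libraries change with the drug. By edgeR's quasi-likelihood test with Benjamini-Hochberg adjustment, 9 Gpr genes rose and 0 fell. They were 3 adhesion receptors (Gpr56, Gpr115 and Gpr123), the class C receptor Gpr158, the constitutively active Gpr12 and Gpr61, Gpr85 of the SREB family, and the orphans Gpr162 and Gpr165. Of the 89 genes, 57 passed the filter on low counts and 32 did not. The 9 are 15.8% of those tested, beside 8.05% of all 14229 genes called higher, and 0 is beside 1.26% called lower (9.31% in either direction). The members' median log2 change was 0.40, against -0.003 over all genes, and 51 of 57 were above 0. At an unadjusted p under 0.05 there were 24 members and 3324 genes.

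Gpr56, a receptor for collagen III that shapes the cortex and myelin, had the smallest p. In mossy cells it was at 17.8 CPM in the lowest vehicle library, 19.7 at the median and 21.6 in the highest, and at 23.5, 39.3 and 67.3 with fluoxetine. All 7 fluoxetine libraries were above all 6 vehicle libraries. The log2 change was 1.17 ± 0.19 (SE, adjusted p = 0.00119), or 2.24-fold, and without fluoxetine libraries 2 and 4, an alternative chosen after seeing the data, it was 0.92 ± 0.16 (adjusted p = 0.00421).

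Gpr115 (Adgrf4), an adhesion receptor known from epithelia, changed most but from a low level. It was at 0.158, 0.280 and 0.528 CPM (lowest, median, highest) with vehicle and at 0.672, 1.80 and 5.31 with fluoxetine, without overlap. The highest value was in fluoxetine library 2, and the next was 2.22 CPM. The log2 change was 2.62 ± 0.52 (adjusted p = 0.00355), and 2.16 ± 0.47 (adjusted p = 0.00863) without that library.

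Gpr85 (SREB2), a highly conserved receptor that limits brain size and dentate neurogenesis in mice, was at 11.7, 13.98 and 15.9 CPM with vehicle and 17.0, 20.97 and 25.2 with fluoxetine. The groups did not overlap, and the log2 change was 0.52 ± 0.12 (adjusted p = 0.0116). Gpr165 was at 10.6 to 14.9 CPM with vehicle and 15.5 to 20.03 with fluoxetine, again without overlap (0.49 ± 0.12, adjusted p = 0.0158). Gpr56, Gpr115, Gpr85 and Gpr165 are the called members whose groups did not overlap. The share of all called genes without overlap was not counted in any comparison. A lack of overlap is therefore not shown to be particular to Gpr genes.

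In the other 5 the groups overlapped. Gpr162, an orphan of neurons, was at 13.5, 16.3 and 22.4 CPM with vehicle and 18.7, 29.2 and 33.0 with fluoxetine, and 5 of 7 fluoxetine libraries were above every vehicle library (0.63 ± 0.16, adjusted p = 0.0147). Gpr158 was at 124, 127 and 140 CPM and at 138, 159 and 220 CPM, with 6 of 7 above (0.36 ± 0.10, adjusted p = 0.0294). Gpr123, an adhesion receptor of the postsynaptic density, was at 78.6, 104 and 107 CPM and at 86.7, 132 and 157 CPM, with 6 of 7 above (0.40 ± 0.12, adjusted p = 0.0417). Gpr12 rose by 0.53 ± 0.16 (16.7 to 24.1 CPM on average, adjusted p = 0.0365) and Gpr61, an orphan linked to body weight in mice, by 0.69 ± 0.21 (5.92 to 9.55 CPM, adjusted p = 0.0409).

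How firmly each call stands differed. Gpr56, Gpr115, Gpr85 and Gpr162 were called in each of 13 fits that left out 1 library, and Gpr165 in 12 (not without vehicle library 3, adjusted p = 0.0550). The calls of Gpr158, Gpr61, Gpr12 and Gpr123 held in 6, 4, 3 and 2 of 13 fits. The call of Gpr158 ended without fluoxetine library 3 or 4 or any vehicle library but 3, and that of Gpr61 without any of fluoxetine libraries 4 to 7 or vehicle libraries 2 to 6. The call of Gpr12 ended without fluoxetine library 3, 4, 5 or 7 or any vehicle library, and that of Gpr123 without any library but fluoxetine 1 and 3. Without fluoxetine library 4 alone, Gpr158 (adjusted p = 0.0641), Gpr61 (0.0584), Gpr12 (0.0829) and Gpr123 (0.0862) were not called, and 5 members were. Without fluoxetine libraries 2 and 4 together, 4 remained called: Gpr115, Gpr12, Gpr56 and Gpr61. The correction for GC content and transcript length ended the calls of Gpr61 and Gpr123 and added those of Gpr22 and Gpr155, and the replicate block ended those of Gpr12, Gpr61 and Gpr123. The summed microglial markers were 8.72 to 14.3 CPM with vehicle and 16.4 to 108 with fluoxetine. Of 7 tested microglial markers 4 rose, as did 2 of 8 astrocyte markers. Oligodendrocyte precursor markers (2 of 5 rose) summed to 15.5 to 41.4 and 27.6 to 141 CPM, highest in fluoxetine library 7. CA3 pyramidal markers (2 of 6 rose) summed to 305 to 379 and 362 to 724 CPM. Of these 4 lists 0 markers fell, and 1 of 2 tested choroid plexus markers fell. The part of these cells in the changes was not tested.

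Of the named members that did not pass, Gpr22 was at 58.2 to 77.2 CPM with vehicle and 67.5 to 104 with fluoxetine (log2 change 0.30 ± 0.10, adjusted p = 0.0773), and Gpr155 had a change of 0.36 ± 0.12 (adjusted p = 0.0715). Gpr3 (0.70 ± 0.29), Gpr37 (0.56 ± 0.27), Gpr101 (0.55 ± 0.35), Gpr83 (0.43 ± 0.21) and Gpr26 (0.07 ± 0.23) had adjusted p between 0.149 and 0.902. Gpr1, a chemerin receptor, had the lowest change of all tested members (-1.28 ± 0.52, adjusted p = 0.136); it lies outside the naming rule and was chosen after its value was seen.

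**Figure D3:**
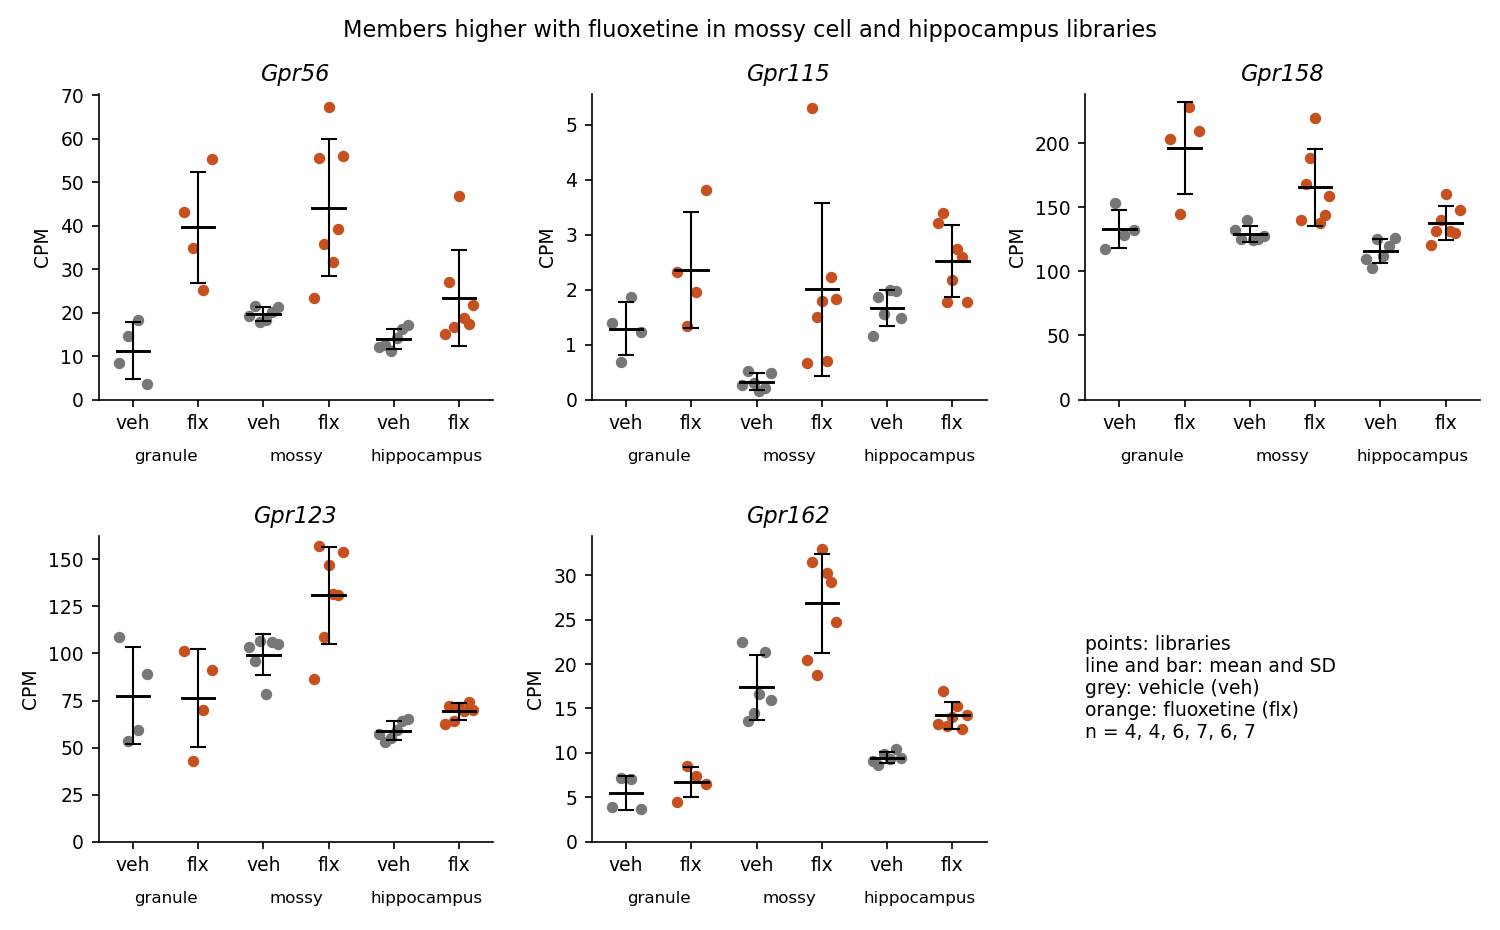
CPM in every library of the 5 Gpr genes that rose with fluoxetine in both mossy cells and hippocampus (grey vehicle, orange fluoxetine, bars mean and SD, n = 4, 4, 6, 7, 6 and 7). In mossy cells, all 7 fluoxetine libraries lie above all 6 vehicle libraries for Gpr56 and Gpr115.

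In the hippocampus libraries 21 Gpr genes rose and 0 fell, of 65 tested and 24 not tested. That is 32.3% of those tested, beside 15.5% of 15596 genes called higher, and 0 is beside 14.7% called lower (30.2% in either direction). The median log2 change of the members was 0.29, against 0.001 over all genes, 58 of 65 were above 0, and 28 members and 6561 genes had an unadjusted p under 0.05. Correcting for the GC content and length of transcripts moved the share of higher genes among all calls from 51.2% to 36.4%, and under it 13 Gpr genes rose and 1 fell (Gpr25). This correction ended the calls of Gpr27, Gpr75, Gpr89, Gpr123, Gpr137, Gpr146, Gpr158 and Gpr161. With the replicate number as a block, Gpr27, Gpr75, Gpr89, Gpr146 and Gpr161 were not called and Gpr108 was.

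The list of intracellular or non-classical proteins holds Gpr143 and Gpr157 besides those named at the outset. Gpr143 was too low to test. Of the 7 tested, 6 rose, beside 15.5% of all genes, and the seventh, Gpr108, was at 0.29 ± 0.11 (adjusted p = 0.0529). The list was made with earlier results of these data known. The correction for GC content and transcript length ended the calls of Gpr137 and Gpr89, and the replicate block ended that of Gpr89 and added that of Gpr108. Gpr155 was at 28.8, 35.1 and 41.8 CPM with vehicle (lowest, median, highest) and at 41.9, 48.2 and 57.8 with fluoxetine. The lowest fluoxetine library was just above the highest vehicle library, and the log2 change was 0.45 ± 0.10 (SE, adjusted p = 0.00347). Gpr180 (7.12 to 9.40 CPM against 10.6 to 12.1, 0.37 ± 0.09), Gpr107 of the Golgi (13.0 to 16.6 against 17.2 to 29.3, 0.42 ± 0.11, or 0.32 ± 0.08 without fluoxetine library 4) and Gpr157, a Gq-coupled protein of neural progenitor cilia in mice (2.34 to 3.42 against 3.75 to 6.29, 0.72 ± 0.15), did not overlap either. Gpr137 (0.28 ± 0.08, adjusted p = 0.0177) and Gpr89, the Golgi pH regulator (0.26 ± 0.09, adjusted p = 0.0300), overlapped between groups, and the call of Gpr89 ended without fluoxetine library 2 or 6 or vehicle library 1, 2 or 4. Of their exon bases, 15.4% and 24.8% lie over a gene on the other strand (Bad and Pdzk1), so their counts are uncertain.

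The adhesion receptors had 4 of 11 tested higher. Gpr56 was at 11.3, 13.4 and 17.1 CPM with vehicle and at 15.1, 18.8 and 46.9 with fluoxetine, with 5 of 7 above every vehicle library. Its log2 change was 0.75 ± 0.21 (adjusted p = 0.0151), and 0.49 ± 0.13 (adjusted p = 0.0123) without fluoxetine library 4, which held the highest value. Gpr123 was at 52.7, 58.2 and 65.3 CPM and at 62.4, 69.8 and 74.4 CPM (0.23 ± 0.06, adjusted p = 0.0128). Gpr115 was at 1.15 to 1.99 CPM and 1.77 to 3.40 CPM (0.59 ± 0.20, adjusted p = 0.0343), and its call held in 6 of 13 fits, ending without fluoxetine library 1, 2, 5 or 6 or vehicle library 1, 3 or 6. Its neighbour Gpr111 (Adgrf2), 16.65 kb away on chromosome 17, had a mean of 0.154 CPM with vehicle and 0.418 with fluoxetine (1.39 ± 0.37, adjusted p = 0.0105).

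Among the neuronal class A receptors, Gpr162 had the smallest p of all members. It was at 8.59, 9.34 and 10.4 CPM with vehicle and 12.7, 14.05 and 17.0 with fluoxetine, without overlap (0.59 ± 0.09, adjusted p = 0.000512). Gpr26, a constitutively active orphan, was at 10.9 to 16.7 and 17.6 to 23.6 CPM, also without overlap (0.47 ± 0.10, adjusted p = 0.00337). Gpr83 (0.44 ± 0.15), Gpr161 (0.31 ± 0.12), Gpr146 (0.36 ± 0.13), Gpr75 (0.22 ± 0.08) and Gpr27 of the SREB family (0.51 ± 0.19) rose with adjusted p between 0.0326 and 0.0492. Leaving out fluoxetine library 4 ended the calls of Gpr146 (adjusted p = 0.0751) and Gpr161 (0.0901), and leaving out fluoxetine library 2 or vehicle library 1, 3, 4 or 5 ended that of Gpr83. Gpr146 was also lost without fluoxetine library 5 or 6 or any vehicle library but 3, and Gpr161 without fluoxetine library 3, 5 or 7 or any vehicle library but 5. Gpr75 was lost without fluoxetine library 1, 3, 6 or 7 or any vehicle library but 3, and Gpr27 without any fluoxetine library but 4 and 6 or any vehicle library but 4 and 6. Gpr158 was at 103, 116 and 126 CPM with vehicle and 121, 132 and 160 with fluoxetine, 6 of 7 above (0.24 ± 0.07, adjusted p = 0.0134).

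The largest change belonged to Gpr34. It was at 0.428, 0.940 and 1.71 CPM with vehicle and 1.13, 2.84 and 7.18 with fluoxetine, with 6 of 7 fluoxetine libraries above every vehicle library. The log2 change was 1.72 ± 0.36 (adjusted p = 0.00289), and 1.41 ± 0.31 (adjusted p = 0.00362) without fluoxetine library 4. Gpr171, which responds to the proSAAS peptide BigLEN and is also expressed by immune cells, was at 0.201 to 0.368 and 0.436 to 1.04 CPM without overlap (1.34 ± 0.31, adjusted p = 0.00488, and 1.25 ± 0.32, adjusted p = 0.00881, without that library). Gpr17 was at 15.0 to 18.9 and 16.7 to 31.9 CPM, 6 of 7 above (0.48 ± 0.12, adjusted p = 0.00891, and 0.39 ± 0.10, adjusted p = 0.0118, without it).

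Microglial markers moved with these genes. Their sum of 8 genes was 32.3 to 39.6 CPM in hippocampus vehicle libraries and 49.5 to 241 CPM with fluoxetine, without overlap, none of the 8 was at 0 in any library of either group, and 7 of 8 rose, among them Tmem119 (1.72 ± 0.29) and Csf1r (1.59 ± 0.35). In mossy cells, where that sum was 8.72 to 14.3 CPM with vehicle, Gpr34 and Gpr171 were too low to test. The sum of 5 oligodendrocyte precursor markers was 63.2 to 72.7 and 63.5 to 91.7 CPM, and 1 of those 5 rose. Astrocyte markers (8 genes) summed to 1426 to 1759 CPM with vehicle and 1835 to 5706 with fluoxetine, without overlap, and 6 of 8 rose. Choroid plexus markers (5 genes) summed to 1459, 3615 and 5350 CPM in vehicle libraries 4, 1 and 2, to 21.6 to 31.9 in the 3 other vehicle libraries and to 20.9 to 109.6 with fluoxetine, and 3 of 3 tested fell. The part of these cells in the changes of Gpr34, Gpr171, Gpr17 and the other members that rose was not tested.

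**Figure D4:**
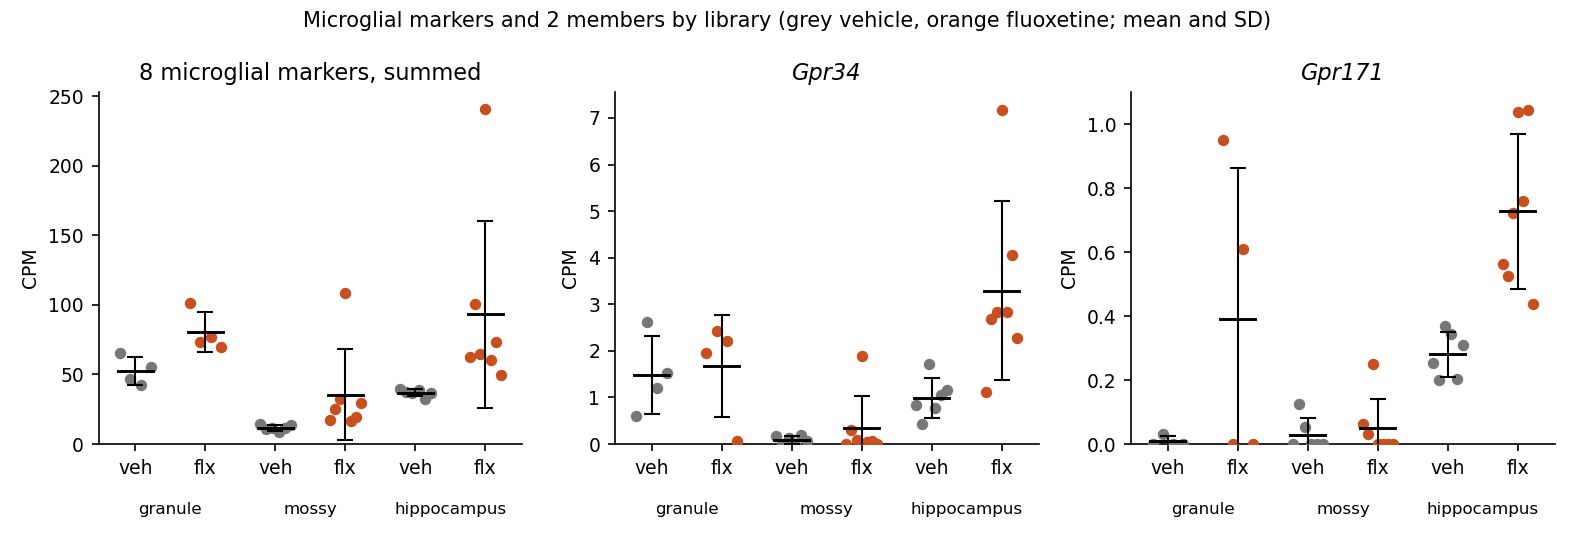
Summed CPM of 8 microglial markers, and CPM of Gpr34 and Gpr171, in every library (grey vehicle, orange fluoxetine, bars mean and SD). In hippocampus the marker sum and Gpr171 do not overlap between treatments, and library 4 is highest for the marker sum and Gpr34.

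Several of these genes lie inside another gene on the opposite strand, and the kits used are not stated to keep strand. The changes of the host genes are given beside them. Cask, host of Gpr34, had a log2 change of 0.05 in hippocampus (adjusted p = 0.492), Med12l, host of Gpr171, 0.10 (0.359), Fgfr2, which contains Gpr26, -0.01 (0.976), and Lims2, which contains Gpr17, -0.31 (0.0872). In all, 12 of 89 members lie inside another gene, 11 of them on the opposite strand only. Cog5, host of Gpr22, had -0.06 (adjusted p = 0.534), and 3110082I17Rik, host of Gpr146, -0.11 (0.374). Hosts of some members that were not called did pass edgeR's test in hippocampus. Ubac2, host of Gpr18 and Gpr183, had 0.40 (adjusted p = 0.00213), and Rabgap1, host of Gpr21 on the same strand, -0.16 (0.0193).

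In the remaining named members of hippocampus, Gpr151 had a log2 change of 0.85 ± 0.37 (adjusted p = 0.0864), Gpr3 0.42 ± 0.18 (0.0872), Gpr85 0.14 ± 0.07 (0.137), Gpr101 0.30 ± 0.17 (0.186), Gpr22 0.10 ± 0.07 (0.283) and Gpr12 -0.004 ± 0.14 (0.986). Gpr176 (0.00 ± 0.09), Gpr37 (0.08 ± 0.12), Gpr52 (-0.24 ± 0.27) and Gpr139 (0.69 ± 0.66) had adjusted p of 0.459 or more.

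**Figure D5:**
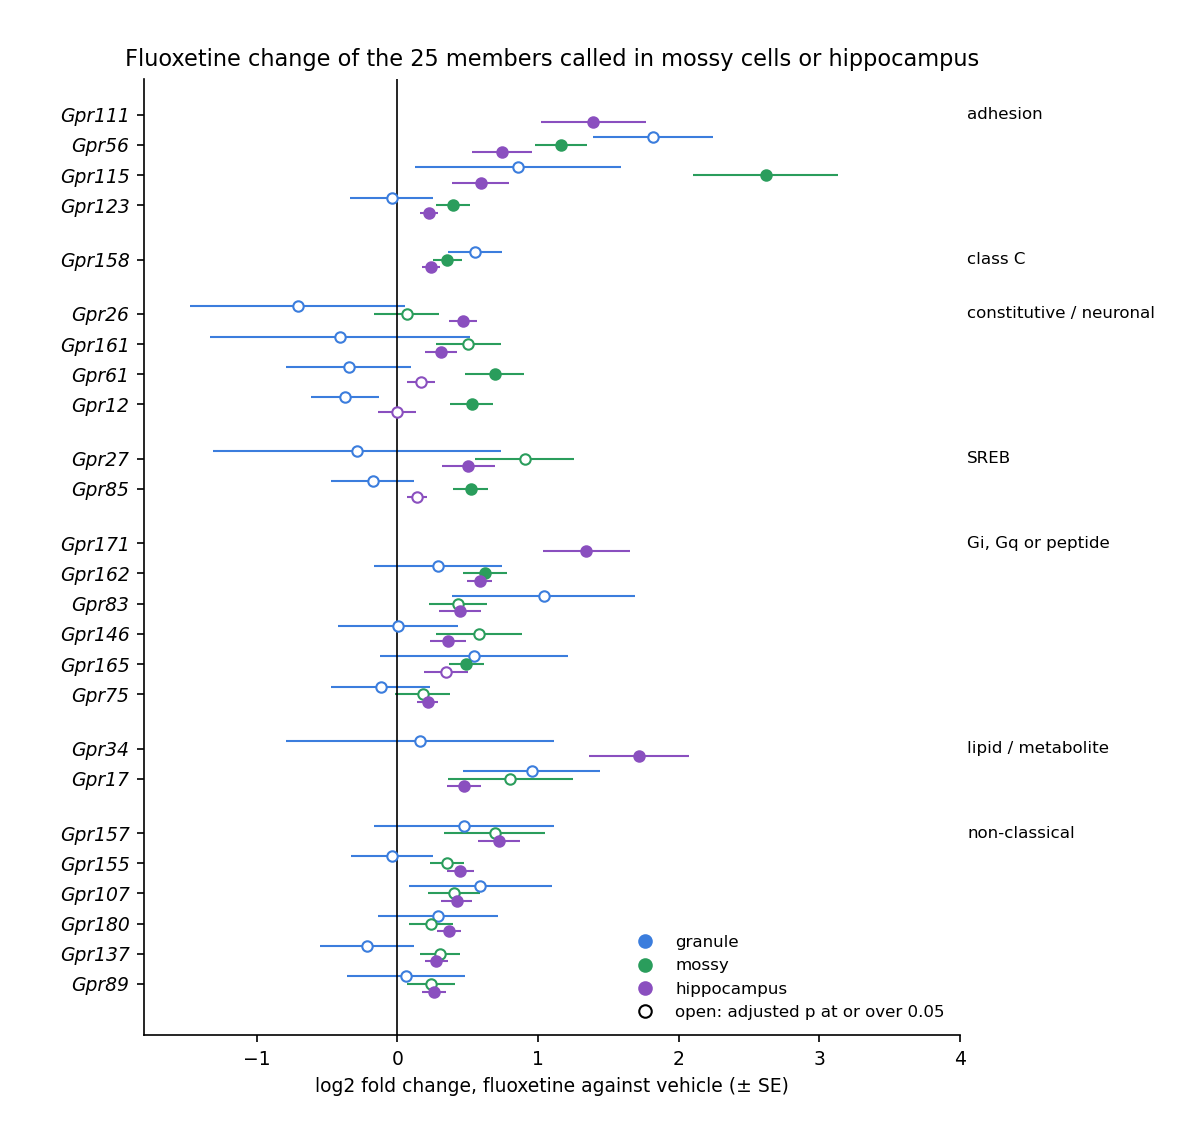
Log2 fold change with fluoxetine (± SE) in granule cells, mossy cells and hippocampus for the 25 Gpr genes that rose in mossy cells or hippocampus, grouped by role. Filled points passed an adjusted p of 0.05. A source where a gene was too low to test has no point. All filled points lie right of 0, and all granule cell points are open.

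Of the 25 genes that rose in either source, 5 rose in both: Gpr56, Gpr115, Gpr123, Gpr158 and Gpr162. They are 55.6% of the calls in mossy cells and 23.8% of those in hippocampus, among 56 members tested in both. Over all 14082 genes tested in both, 828 were called higher in both. They were 72.3% of the calls in mossy cells and 34.3% of those in hippocampus. Between these sources, 12 of 13 libraries correlated best with their own number, so the calls of the sources may not be independent. With the correction for GC content and transcript length, Gpr123 was called in neither source and Gpr158 in mossy cells only, so that Gpr56, Gpr115 and Gpr162 were left of the 5. Under this correction Gpr155 was called in both sources as well, which made 4 shared members. With the replicate block Gpr123 was not called in mossy cells. The log2 changes of the 5 in mossy cells and hippocampus were 1.17 and 0.75 for Gpr56, 2.62 and 0.59 for Gpr115, 0.40 and 0.23 for Gpr123, 0.36 and 0.24 for Gpr158, and 0.63 and 0.59 for Gpr162. The test of the difference itself called 0 of 67 members, beside 0.044% of all genes, 0.00628% higher and 0.0377% lower (6 members and 1790 genes at an unadjusted p under 0.05), so no member was shown to change more in one source than in the other. The smallest p was that of Gpr115 (difference 2.05 ± 0.52, adjusted p = 0.111), which DESeq2's Wald test called.

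In granule cells 54 members were tested and 0 were called, as were 0.0% of all 14236 genes. At an unadjusted p under 0.05 there were 3 members and 1056 genes, and DESeq2's Wald test called 2 members. The members' median log2 change was 0.02, against 0.01 over all genes, with 31 of 54 above 0. With 4 libraries a group, the same test on simulated counts recovered 28.4% of genes changed 2-fold. Changes of that size were thus mostly not detectable here. In mossy cells 97.0% were recovered, and in hippocampus all 67 such genes. Only genes above a floor in mean CPM were changed in the simulation, so these shares do not cover members at low levels.

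The 3 members with the smallest p were Gpr56, Gpr101 and Gpr158. Gpr56 was at 3.58, 8.40, 14.6 and 18.3 CPM with vehicle and at 25.3, 34.9, 43.1 and 55.3 with fluoxetine. The groups did not overlap, and the log2 change was 1.82 ± 0.43 (SE, adjusted p = 0.323). Gpr101 was at 3.41, 4.25, 7.74 and 8.23 CPM and at 12.4, 13.2, 25.2 and 27.9 CPM, also without overlap (1.72 ± 0.42, adjusted p = 0.354). Gpr158 was at 118, 128, 133 and 154 CPM and at 145, 203, 209 and 228 CPM, and 3 of 4 fluoxetine libraries were above every vehicle library (0.55 ± 0.19, adjusted p = 0.529). Gpr56 and Gpr101 are the 2 that DESeq2 called.

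Other named members of granule cells had wide errors. Gpr17 (0.95 ± 0.48), Gpr83 (1.04 ± 0.65), Gpr12 (-0.37 ± 0.24), Gpr155 (-0.04 ± 0.29), Gpr22 (-0.07 ± 0.20), Gpr37 (0.24 ± 0.37), Gpr85 (-0.17 ± 0.30) and Gpr26 (-0.71 ± 0.76) had adjusted p of 0.688 or more. Granule cell markers summed to 853 to 1002 CPM with vehicle and 556 to 658 with fluoxetine, and microglial markers to 42.6 to 65.1 and 69.8 to 101. Astrocyte markers summed to 968 to 1154 and 1324 to 1737, and oligodendrocyte markers to 582 to 727 and 793 to 982. None of these 4 sums overlapped, 0 of 8 astrocyte and 0 of 8 oligodendrocyte markers were called, and their part in these values was not tested.

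Tests of the difference in the fluoxetine change between granule cells and the other sources called 1 Gpr gene. Against mossy cells 0 of 59 were called, beside 0.181% of all genes, 0.0518% higher and 0.13% lower (7 members and 2151 genes at an unadjusted p under 0.05). The smallest p was that of Gpr12, at -0.89 ± 0.27 (adjusted p = 0.136), which DESeq2's Wald test called. Against hippocampus 1 of 67 was called, beside 1.98% of all genes, 1.12% higher and 0.868% lower. It was Gpr160, a reported receptor for the CART peptide, at -6.02 ± 1.57 (adjusted p = 0.0460). It was at 0, 0, 0.379 and 0.964 CPM with vehicle and 0, 0, 0 and 0.0364 with fluoxetine in granule cells, against 0.0866 to 0.642 and 0.190 to 1.24 in hippocampus, and was too low to test within granule cells. A fitted change between values this close to 0 is no measure of size, and the call was lost with the replicate number as a block (adjusted p = 0.668), with no filter on low counts (0.0552) and in 18 of 21 fits without 1 library.

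The signalling partners of these receptors were followed in lists made with earlier results known. In mossy cells 2 of 7 tested ligands and partners rose and 0 fell: Pcsk1n, which encodes proSAAS, the source of the peptides PEN and BigLEN (0.73 ± 0.14, adjusted p = 0.00313), and Psap, which encodes prosaposin, a ligand reported for Gpr37 (0.64 ± 0.12, adjusted p = 0.00289), beside 8.05% of all genes called higher and 1.26% lower. In hippocampus 4 of 8 rose and 1 fell. Pcsk1n (0.40 ± 0.08, adjusted p = 0.00227), Psap (0.35 ± 0.09, 0.0109), the astrocytic relative Gpr37l1 (1.06 ± 0.28, 0.00936) and Gpc4, a glypican that binds Gpr158 (0.29 ± 0.08, 0.0160), rose. Gnb5, the beta subunit in the complex that Gpr158 binds, fell by 0.21 (SE 0.05, adjusted p = 0.00664). Without fluoxetine library 4, the change of Gpr37l1 was 0.62 ± 0.10 (adjusted p = 0.000735).

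The shared signalling machinery was followed as well. In mossy cells 0 of 12 G protein alpha subunits, 0 of 11 beta and gamma subunits, 0 of 16 RGS proteins, 0 of 7 receptor kinases and arrestins and 0 of 12 genes of receptor traffic in the primary cilium were called by edgeR, beside the same 8.05% and 1.26%. In hippocampus 0 of 13 alpha subunits rose and 3 fell, Gnai1 (-0.33 ± 0.06), Gnaq (-0.25 ± 0.06) and Gnai3 (-0.24 ± 0.08), and of 13 beta and gamma subunits 3 fell, Gng10, Gng2 and Gnb1 (-0.29, -0.28 and -0.14). Of 16 RGS proteins 2 rose (Rgs11, 0.99 ± 0.18, and Rgs9, 0.48 ± 0.12) and 2 fell (Rgs14 and Rgs7bp, -0.28 and -0.23). Of 7 receptor kinases and arrestins 3 rose (Grk4, 0.61 ± 0.15; Adrbk2, 0.26 ± 0.08; Arrb1, 0.22 ± 0.08), and 1 of 12 cilium genes rose (Ptch1, 0.43 ± 0.08). In granule cells 0 members of any of these lists were called. These counts stand beside 15.5% of all genes called higher and 14.7% called lower in hippocampus.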

How the data were processed

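RNA from 34 libraries was sequenced by the authors. The deposited tables hold raw read counts per gene symbol, 1 table per source, and all use the same 24485 symbols. The build was GRCm38 and the tools named are HTSeq 0.7.2, STAR 2.5.2b and edgeR, per the submitters' processing notes. The gene annotation, the strand setting and the handling of reads with several alignments are not given in the sources used here. Reads from genes that overlap on opposite strands therefore cannot be told apart.

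From the counts as deposited, each comparison was fitted in R 4.3.3 by the quasi-likelihood F test of edgeR 4.0.16 (filterByExpr, TMM scaling, Benjamini-Hochberg adjustment over all genes tested, threshold 0.05). Fluoxetine was compared with vehicle within each source, sources were compared under vehicle, and interaction terms tested differences between fluoxetine changes. CPM used 1 TMM scale over the 34 libraries. Since the sources were deposited in separate tables of raw counts, levels between sources carry any difference in their handling. Coordinates and exon lengths came from GENCODE M21 (88 of 89 members matched) and promoters from RefSeq.

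Total counts of 14.1 to 45 M limit the precision of genes under about 1 CPM. Replicates of a group differed beyond sampling noise (chi-square per degree of freedom 6.74 to 391), so none was counted as a duplicate. The fits were tested on simulated data. Alternatives were DESeq2 1.42.0 (its size factors and its Wald test), no filter on low counts, the replicate number as a block, an offset for GC content and length, and leaving out libraries. Genes were named by rule: every member called in a fluoxetine comparison or interaction (where none was called, the 3 with the smallest p), up to 10 per direction with the largest change in each contrast between sources whose mean log2 CPM is 0 or more, the 10 with the highest vehicle CPM per kb in each source, and a list of members with a known role in brain. The few members named outside it (Gpr1, Gpr84) were chosen after their values were seen. The members and lists were chosen with earlier results of these data known. Results for a few members are not reported here.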

Additional observations from a re-analysis of the deposited data

Results flagged for a closer look

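A library that stood apart from the rest of its group was looked for in 66 groups of values, and 8 were found. Chance alone gives about 1 in 20 such groups. In mossy cells they were the Gpr115 level of fluoxetine library 2 (5.31 CPM, the next 2.22), the Gpr123 level of vehicle library 4 (78.56 CPM, the next 96.0) and the Gpr61 level of vehicle library 1 (8.423 CPM, the next 5.99). In hippocampus, fluoxetine library 4 stood apart for Gpr56 (46.9 CPM, the next 27.0), Gpr107 (29.32 CPM, the next 21.7) and Gpr146 (14.33 CPM, the next 10.3). Fluoxetine library 2 stood apart for Gpr83 (11.08 CPM, the next 6.93) and fluoxetine library 5 for Gpr27 (2.351 CPM, the next 1.86).

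The fluoxetine change of Gpr160 differed between granule cells and hippocampus by -6.02 on the log2 scale in the test of the difference itself (adjusted p = 0.0460, edgeR). Its highest level in any granule cell library was 0.964 CPM.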

How the results depend on the processing

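Of 897 alternative values for 133 results on 47 members, 827 kept their side of the threshold, 60 were no longer past it and 10 became so. Of the fits that left out 1 library, only those with the lowest and the highest change of each result are among the 897. The 827 thus understates how often calls ended in such fits: those of Gpr12 and Gpr123 in mossy cells ended in 10 and 11 of 13. Among results called by the main fit or the alternative, 0 reversed direction. Direction was not followed where neither called the result, and many of the 133 were not called. DESeq2's Wald test called 14 members in mossy cells (9 by edgeR), 2 in granule cells (0) and, for the differences between fluoxetine changes, 1 for mossy cells against hippocampus (0), 1 for granule against mossy cells (0) and 4 for granule cells against hippocampus (1). Without fluoxetine libraries 2 and 4 of mossy cells, 4 members were called. Leaving out 1 library gave 5 to 13 calls in mossy cells, 15 to 21 in hippocampus, 0 to 0 in granule cells, 35 to 39, 21 to 27 and 8 to 18 for the sources (mossy cells against hippocampus, granule against mossy cells, granule cells against hippocampus), and 0 to 1, 0 to 1 and 0 to 5 for their differences in the fluoxetine change. The cause was not tested.

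With the replicate block, 6 members were called in mossy cells, 17 in hippocampus and 0 in granule cells, 39, 18 and 3 for the sources, and 0 for each difference in the fluoxetine change. Replicate numbers are shared between groups, but deviations of same-numbered libraries correlated by -0.119 to 0.0607 in mossy cells, -0.0416 to 0.0817 in hippocampus and 0.0736 to 0.215 in granule cells, with 0 of 6, 0 of 6 and 3 of 4 pairs over 0.1. The numbers were not taken to pair libraries, as that needed every pair over 0.1. Between mossy cells and hippocampus, 7 of 13 pairs were over 0.1 and 12 of 13 libraries correlated best with their own number, a hint from the data only.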
